A study of Mus musculus with 71 samples.

Results

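Transcripts of 8 serotonin receptors (Htr1a, Htr1b, Htr2a, Htr2c, Htr3a, Htr4, Htr5a and Htr7) and of both monoamine oxidases (Maoa and Maob) were read in mouse brain after a skin burn. The 10 genes were taken by name from a table of 55416 gene identifiers, and each name matched 1 identifier. They were followed in all 71 libraries of bulk RNA sequencing, by region, treatment and batch. The mice were C57BL/6J, and no transgene or deletion is named for any group. Burned mice had a brass rod of 19 mm, heated above 90 °C, held on the shaved right flank for 10 s, for a full-thickness burn of 7 to 8% of the body surface. Excised mice had full-thickness skin removed from the back along a template of 12 mm, a wound that per the labels later widened to the size of the burn. Sham mice were shaved on the back and not injured. All groups had isoflurane, buprenorphine at 0.1 mg/kg and 5 days of paracetamol at 1 mg/mL in the drinking water. Burn thus differed from excision and sham in its site as well as in the injury. Of the hippocampus there were 10 libraries from burned, 10 from excised and 9 from sham mice, of the piriform cortex 5, 4 and 5, and of the frontal cortex 10, 10 and 8. The labels give no age, no sex, no time from injury to tissue collection and no statement of which libraries share an animal. Numbers in the library names run alike over hippocampus and frontal cortex within a batch and treatment. Whether they mark shared animals is not stated, and the main fits did not pair on them. P-values therefore measure the spread between libraries.

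Serotonin is made by neurons of the brainstem raphe nuclei, whose fibres reach the hippocampus and the whole cortex. Its receptors fall into families that differ in the signal they pass on. Htr1a, Htr1b and Htr5a encode receptors coupled to inhibitory G proteins, Htr2a and Htr2c encode receptors that act through phospholipase C, and Htr4 and Htr7 encode receptors that raise cyclic AMP. Htr3a encodes a subunit of the only serotonin receptor that is an ion channel. Monoamine oxidases sit on the outer mitochondrial membrane and break down monoamines. The A form prefers serotonin and noradrenaline, and the B form, abundant in astrocytes and serotonin neurons, prefers phenylethylamine.

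Htr7 and Maoa are the members whose levels passed the test in a comparison of burn with sham, and their promoters are shown for that reason. Htr7 (ENSMUSG00000024798) lies on GRCm38 chromosome 19 at 35958734 to 36057507, on the minus strand. Maoa (ENSMUSG00000025037) lies on the X chromosome at 16619698 to 16687818, on the plus strand. Maob (ENSMUSG00000040147), on the minus strand at 16709282 to 16817366, is its neighbour, with the 3′ ends of both genes facing each other across 21463 bp. The windows run from 250 bases before to 50 bases after the RefSeq gene start in GRCm38.p6, at chr19:36057311-36057610 (minus strand) for Htr7 and chrX:16619448-16619747 (plus strand) for Maoa. Capitals mark the GC box, GGGCGG, on either strand.
Htr7 promoter: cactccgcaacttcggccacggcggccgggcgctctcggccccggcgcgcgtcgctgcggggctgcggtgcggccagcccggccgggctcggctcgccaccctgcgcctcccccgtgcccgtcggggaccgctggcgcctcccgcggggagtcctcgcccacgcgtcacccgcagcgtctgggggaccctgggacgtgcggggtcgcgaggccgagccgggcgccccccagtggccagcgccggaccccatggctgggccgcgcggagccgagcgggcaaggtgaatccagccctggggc
Maoa promoter: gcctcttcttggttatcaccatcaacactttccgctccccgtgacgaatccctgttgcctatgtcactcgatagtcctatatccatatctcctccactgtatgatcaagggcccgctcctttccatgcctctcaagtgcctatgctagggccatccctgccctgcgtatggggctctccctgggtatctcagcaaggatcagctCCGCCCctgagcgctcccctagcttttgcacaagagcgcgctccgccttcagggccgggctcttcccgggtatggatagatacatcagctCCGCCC
The Htr7 window is 81.0% G and C and the Maoa window 57.7%, where the median over 27025 mouse promoter windows of this length is 52.7%. The Maoa window holds 2 GC boxes on the strand opposite to the one shown, and the Htr7 window holds 0. A GC box is present in 35.9% of all windows. An E-box (CACGTG, in 7.24% of windows), a CRE (TGACGTCA, 1.88%), a TATA box (TATAAA, 14.2%), a CCAAT box (CCAAT, 37.9%) and a D-box (TTATGTAA, 0.955%) were searched on both strands, and none of these letters occurs in either window. Of the 10 genes, 7 had a promoter entry in the RefSeq table.

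Libraries held 6.65 to 87.8 M counts, with a median of 57.0 M, and the 4 libraries under 10 M were all of hippocampus batch 1. Each member was counted in all 71 libraries, from 12 counts of Htr4 in a piriform library upward. Titles of 4 libraries name another treatment than their treatment field, which was followed: frontal cortex burn replicates 7 and 8 and excision replicate 7, and piriform sham replicate 2. Prox1, a marker of the dentate gyrus, was at 26.01 to 80.6 CPM (counts scaled to library size) in the hippocampus and at 3.896 to 12.01 CPM in the frontal cortex, as their labels have it. In the piriform cortex, sham replicate 1 stood apart with 44.5 CPM of Prox1 and 190 CPM of Ttr of the choroid plexus, against 6.46 to 9.19 CPM of Prox1 in the other 13 libraries. Piriform sham replicate 3 had 122 CPM of the striatal gene Drd2, the highest of its region. Markers of piriform and olfactory cortex summed to 305 ± 36.3 CPM in piriform and 342 ± 20.1 CPM in frontal sham libraries (SD, n = 5 and 8). Neocortex markers summed to 1105 ± 151 and 938 ± 91.0 CPM. These lists did not set the piriform libraries apart as piriform, and their titles name the frontal cortex. The name piriform cortex thus rests on the tissue field. Hippocampus sham replicate 3 had 82.9 CPM of the neutrophil gene S100a9, where no other hippocampus sham library passed 0.212 CPM. In bulk tissue, fewer cells of a type and less RNA per cell cannot be told apart.

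In sham mice the levels of the 10 genes were first compared with each other per transcript length, as RPKM (CPM divided by the exon length in kilobases). Maob was the most abundant in all 3 regions, at 8.38 ± 1.87 RPKM in the hippocampus (SD, n = 9), 8.85 ± 1.31 RPKM in the piriform cortex (n = 5) and 9.16 ± 1.26 RPKM in the frontal cortex (n = 8). In the hippocampus Htr1a came next at 7.05 ± 1.35 RPKM, within the SD of Maob, and was followed by Maoa at 4.87 ± 0.263 and Htr3a at 4.31 ± 0.713 RPKM. Htr2c, Htr7, Htr5a, Htr2a and Htr4 then ran from 2.99 down to 1.35 RPKM, and Htr1b came last at 1.16 ± 0.311 RPKM. Htr1a exceeded Maoa by more than their SDs, and from Maoa downward each hippocampal neighbour in that order lay within the SDs of the next.

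The cortical orders differed. In the piriform cortex Maoa (4.66 ± 0.715 RPKM), Htr2a (3.54 ± 1.13) and Htr5a (3.49 ± 1.09) came after Maob, the next 5 receptors lay between 2.37 and 1.81 RPKM, and Htr4 was lowest at 0.364 ± 0.368 RPKM. In the frontal cortex Maoa stood at 5.83 ± 0.505 and Htr2a at 5.78 ± 1.23 RPKM, Htr2c, Htr5a, Htr3a, Htr1a, Htr1b and Htr7 ran from 3.85 down to 2.16 RPKM, and Htr4 was lowest at 0.271 ± 0.193 RPKM. In both cortices the gap between Maob and Maoa exceeded the SDs, and so did that between Htr7 and Htr4 in the frontal cortex. All other neighbours of these 2 orders lay within them.

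**Figure D1:**
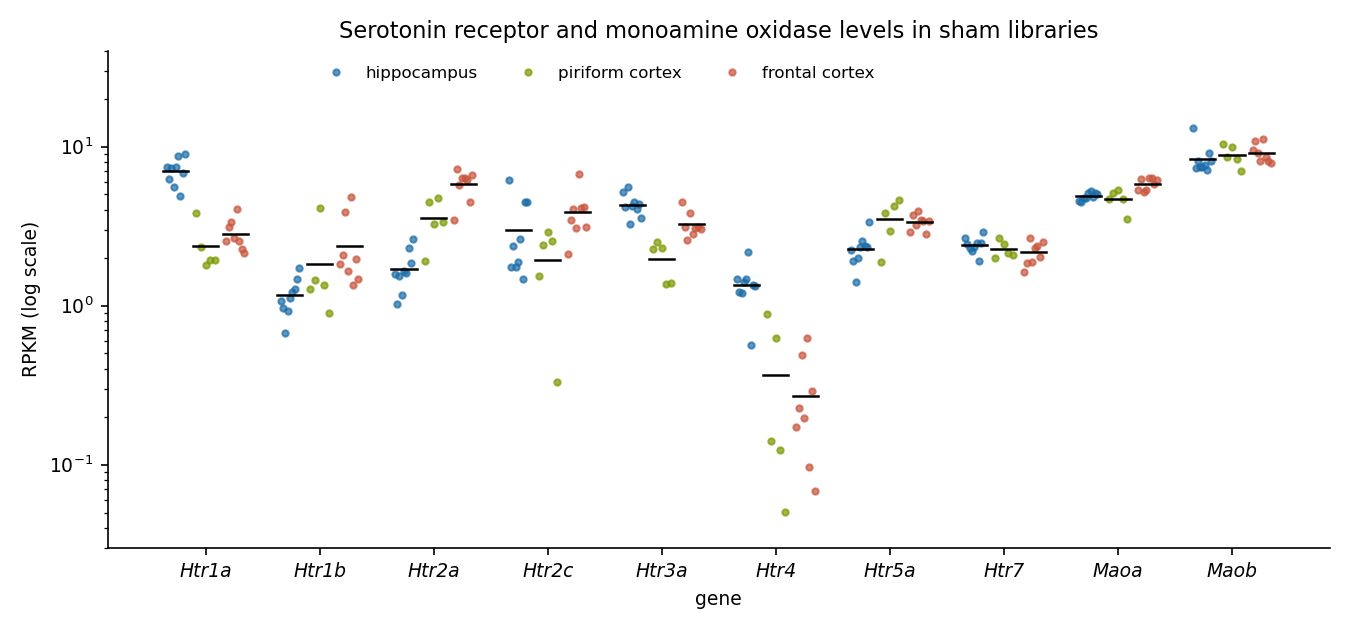
RPKM of the 10 genes in each sham library (log scale), with hippocampus (n = 9), piriform cortex (n = 5) and frontal cortex (n = 8) side by side and the mean as a line. Htr1a and Htr4 stood highest in the hippocampus, at means of 7.05 and 1.35 RPKM, and Htr2a in the frontal cortex, at 5.78 RPKM.

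The regions were then compared gene by gene in sham libraries, with edgeR's quasi-likelihood test and p-values adjusted over all genes. Between the hippocampus and the frontal cortex 7 of 10 members differed, 3 higher and 4 lower, where 41.0% of 19336 genes did, 20.8% higher and 20.1% lower. Against the piriform cortex 5 members differed, 3 higher and 2 lower, where 33.6% of 21149 genes did, 18.0% higher and 15.5% lower. Between the piriform and the frontal cortex 3 were lower, where 11% of genes differed, 5.19% as lower. The piriform libraries form a batch of their own, so that region and batch cannot be told apart there.

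Htr1a, the receptor that hyperpolarises pyramidal cells, was highest in the hippocampus and present in both cortices. It ran from 21.9 to 40.5 CPM in hippocampus sham libraries (median 32.8), against 17.1, 10.5, 8.06, 8.63 and 8.68 CPM in piriform and 9.62 to 18.2 CPM (median 11.7) in frontal cortex sham libraries. The hippocampus did not overlap with either cortex, at log2 fold changes of 1.35 (SE 0.14, adjusted p = 2.06e-07) against the frontal cortex and 1.57 (SE 0.19, adjusted p = 3.69e-07) against the piriform cortex. The highest piriform library is sham replicate 1, the one with high Prox1, and without it the second fold change was 1.79.

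Htr1b, which encodes a receptor of nerve terminals, was lower in the hippocampus, at 3.20 to 8.20 CPM (median 5.25), than in the frontal cortex, at 6.33 to 22.8 CPM (median 8.95). The ranges overlapped, and the log2 fold change was -0.98 (SE 0.27, adjusted p = 0.00735). It was -0.25 (adjusted p = 0.322) in batch 2 alone. Between piriform and frontal cortex Htr1b stood at -0.39 (adjusted p = 0.516). Without piriform sham replicate 3, the library with the highest Drd2 of its region, it was -0.93 (adjusted p = 0.0455). That fit kept frontal sham replicates 1, 3 and 5, which also had high Drd2, at 57.95, 76.7 and 85.0 CPM. Their Htr1b was at 8.67, 18.2 and 22.8 CPM. Htr5a, the other receptor of this coupling class, lay at 7.59 to 18.0 CPM in the hippocampus (median 12.5) and at 15.1 to 21.1 CPM in the frontal cortex (median 18.3), with -0.60 (SE 0.12, adjusted p = 0.00046). Against the piriform cortex (10.2 to 24.8 CPM, median 20.5) Htr5a was also lower in the hippocampus, by -0.62 (SE 0.17, adjusted p = 0.00583). In batch 2 alone its difference from the frontal cortex was -0.33 (adjusted p = 0.098).

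Htr2a, the excitatory receptor of cortical pyramidal cells on which hallucinogens act, was lowest in the hippocampus, where Htr1a was highest. It ran from 5.72 to 14.8 CPM in the hippocampus (median 8.98), was at 10.6, 25.0, 18.3, 26.5 and 18.7 CPM in the piriform libraries, and ran from 19.4 to 40.7 CPM in the frontal cortex (median 34.9). Hippocampus and frontal cortex did not overlap, and the log2 fold change was -1.84 (SE 0.17, adjusted p = 2.88e-08). Against the piriform cortex the hippocampus was lower by -1.05 (SE 0.21, adjusted p = 0.000265), and the piriform was lower than the frontal cortex by -0.70 (SE 0.22, adjusted p = 0.0384). That last call was lost in 14 of 22 fits with 1 library left out, among them the fit without piriform sham replicate 1 (-0.54, adjusted p = 0.104). Htr2c, its relative with edited transcripts, did not pass in any pair of regions, at -0.38, 0.60 and -0.98 for hippocampus against frontal, hippocampus against piriform and piriform against frontal cortex, with adjusted p of 0.116 to 0.308.

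Htr3a, found in a class of cortical interneurons, was at 6.83 to 11.6 CPM in the hippocampus (median 8.83), 2.83 to 5.20 CPM in the piriform cortex (median 4.73) and 5.37 to 9.39 CPM in the frontal cortex (median 6.43). No piriform library overlapped with the hippocampus, and the log2 fold change was 1.12 (SE 0.17, adjusted p = 6.82e-06). The hippocampus passed against the frontal cortex at 0.43 (SE 0.12, adjusted p = 0.00673), and the piriform against the frontal cortex at -0.72 (SE 0.16, adjusted p = 0.00581). Batch 1 alone gave 0.44 (adjusted p = 0.139) between hippocampus and frontal cortex.

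Htr4 and Htr7 share their coupling and differed in their spread over regions. Htr4 ran from 2.78 to 10.6 CPM in the hippocampus (median 6.59), against 4.33, 0.691, 3.06, 0.605 and 0.247 CPM in piriform and 0.33 to 3.06 CPM in frontal cortex libraries (median 1.04). Its log2 fold changes were 2.49 (SE 0.37, adjusted p = 1.83e-05) against the frontal and 1.89 (SE 0.54, adjusted p = 0.00861) against the piriform cortex. Both cortices overlapped with the lowest hippocampus library, and without piriform sham replicate 1, the library at 4.33 CPM, the second value was 2.51. Htr7 was nearly level, at medians of 8.34, 7.24 and 7.36 CPM in hippocampus, piriform and frontal cortex, and no pair of regions passed (0.07 to 0.15, adjusted p from 0.3 to 0.761).

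Maoa was at 18.7 to 21.8 CPM in the hippocampus (median 20.0), 14.5 to 22.3 CPM in the piriform cortex (median 19.6) and 21.4 to 26.4 CPM in the frontal cortex (median 24.9). A single frontal library lay inside the hippocampal range, and the log2 fold changes were -0.28 (SE 0.06, adjusted p = 0.00103) for the hippocampus and -0.32 (SE 0.09, adjusted p = 0.0212) for the piriform cortex against the frontal cortex. In batch 1 alone the hippocampal value was -0.27 (adjusted p = 0.0825). Maob did not pass in any pair of regions, with log2 fold changes of -0.09 to -0.04.

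The burn was compared with sham in the hippocampus to ask which of these genes differed after the injury. Htr7 and Maoa rose, and these 2 of 10 members stand beside 1.03% of 19574 genes called, 0.291% as higher and 0.741% as lower. At an unadjusted p under 0.05 there were 3 members, where 17.7% of genes were. Of the 10 members 9 had a positive log2 fold change. Their median was 0.11, where that of all genes tested was 0.01.

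Htr7, the receptor that raises cyclic AMP in hippocampal and thalamic neurons, was at 11.4, 14.5, 12.7, 13.5 and 11.4 CPM in the burn libraries of batch 1 and at 10.8, 10.0, 7.74, 9.27 and 9.98 CPM in those of batch 2. Excision libraries had 8.84, 9.01, 8.09, 8.39 and 8.18 CPM in batch 1 and 10.1, 6.84, 9.32, 8.58 and 10.99 CPM in batch 2. Sham libraries had 9.08, 8.34, 7.88 and 7.48 CPM in batch 1 and 7.92, 8.40, 6.50, 8.36 and 9.86 CPM in batch 2. In batch 1 all 5 burn libraries lay above every sham and excision library, while in batch 2 the groups overlapped. Over both batches 8 of 10 burn libraries exceeded the highest sham library. The means were 11.2 ± 2.04 CPM in burn and 8.20 ± 0.95 CPM in sham (SD, n = 10 and 9), a fold of 1.33 (log2 fold change 0.41, SE 0.10, adjusted p = 0.0357). Within batches the log2 fold change was 0.60 (adjusted p = 0.0103) in batch 1, where 7.09% of genes were called, and 0.20 (adjusted p = 0.832) in batch 2, a difference of -0.40 (SE 0.17, adjusted p = 0.248).

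Maoa, the enzyme that degrades serotonin, was at 21.6, 23.8, 26.5, 25.6 and 25.5 CPM in the burn libraries of batch 1 and at 25.3, 24.9, 21.1, 24.5 and 24.7 CPM in those of batch 2. Excision libraries had 21.6, 19.9, 16.6, 19.7 and 16.1 CPM in batch 1 and 25.0, 21.6, 20.9, 23.3 and 23.1 CPM in batch 2. Sham libraries had 18.9, 18.7, 19.8 and 19.8 CPM in batch 1 and 21.3, 21.8, 20.0, 21.3 and 20.9 CPM in batch 2. Burn lay above sham without overlap in batch 1 and, apart from 1 burn library at 21.1 CPM, in batch 2, and 8 of 10 burn libraries exceeded every sham library. The means were 24.4 ± 1.74 CPM in burn and 20.3 ± 1.09 CPM in sham, a fold of 1.19 (log2 fold change 0.25, SE 0.06, adjusted p = 0.0336). The log2 fold change was 0.29 (adjusted p = 0.0527) in batch 1 alone and 0.18 (adjusted p = 0.467) in batch 2 alone.

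**Figure D2:**
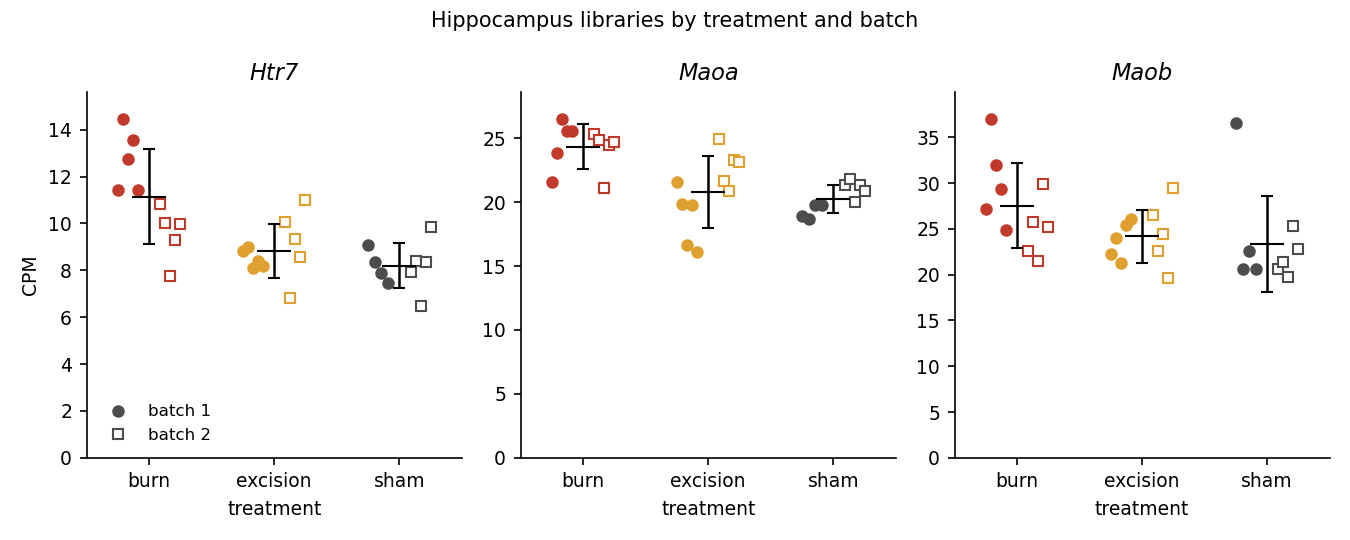
CPM of Htr7, Maoa and Maob in each hippocampus library by treatment, with batch 1 as filled circles, batch 2 as open squares and the mean ± SD in black (n = 10 burn, 10 excision, 9 sham). For Htr7 and Maoa, 8 of 10 burn libraries lie above the highest sham library, and all 5 Htr7 burn libraries of batch 1 lie above all 5 of batch 2.

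Both calls lay near the threshold and depended on which libraries were kept. With 1 library left out, Htr7 was called in 18 of 29 fits and Maoa in 20 of 29, at log2 fold changes of 0.37 to 0.45 and 0.23 to 0.27. The Htr7 call was lost without any one of burn replicates 2 to 6 or sham replicates 2, 3, 4, 5, 7 and 8, at adjusted p up to 0.0789. The Maoa call was lost without any one of burn replicates 2 to 5 or sham replicates 2, 4, 5, 7 and 8, at adjusted p up to 0.0771. Without sham replicate 3, the library with neutrophil transcripts, Htr7 stood at 0.39 (adjusted p = 0.0604) and Maoa at 0.26 (adjusted p = 0.0456).

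The remaining members did not pass in hippocampus burn against sham. Maob, the partner enzyme of Maoa, ran from 21.5 to 37.0 CPM in burn (median 26.5), from 19.6 to 29.4 CPM in excision (median 24.2) and from 19.8 to 36.6 CPM in sham libraries (median 21.4). Burn and sham overlapped, with 5 of 9 sham libraries below every burn library and 1 burn library above every sham library. The log2 fold change of Maob was 0.22 (SE 0.10, adjusted p = 0.223). Without sham replicate 1, the library at 36.6 CPM of Maob, it was 0.31 (adjusted p = 0.0437), in a fit that called 443 of 19728 genes. Htr2c ran from 22.9 to 72.4 CPM in burn (median 39.1), from 10.7 to 49.0 CPM in excision (median 24.8) and from 13.7 to 57.2 CPM in sham libraries (median 22.1), with 0.53 (SE 0.28, adjusted p = 0.321). Htr1a, Htr1b, Htr2a, Htr3a, Htr4 and Htr5a had log2 fold changes of -0.04 to 0.13, with adjusted p from 0.463 to 0.967.

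Markers of choroid plexus, of thalamus and septum and of astrocytes stood higher in the burn group of the hippocampus, without passing the test. All 17 choroid plexus genes stood higher in burn than in sham, with 0 called and a median log2 fold change of 0.93, and their summed level ran from 48.2 to 7135 CPM in burn and from 52.3 to 5419 CPM in sham libraries. Ttr, the defining transcript of that tissue, ran from 9.08 to 6247 CPM over the hippocampus libraries. With that sum as a covariate, Htr7 stood at 0.37 (adjusted p = 0.0673) and Maoa at 0.25 (adjusted p = 0.0613). All 12 markers of thalamus and septum, where Htr7 is also made, had positive values with 0 called, a median of 0.22 and sums of 174 to 406 CPM in burn and 152 to 331 CPM in sham libraries. All 14 astrocyte genes likewise had positive values with 0 called, a median of 0.12 and sums of 5150 to 7376 CPM in burn and 5064 to 6247 CPM in sham libraries. Of 12 microglia genes 9 stood lower, with 0 called, a median of -0.07 and sums of 415.5 to 583 CPM in burn and 449 to 551 CPM in sham libraries. No library had a sum of 0 for these lists. The part of the thalamic and astrocytic signals in the results was not tested.

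Burn against excision sets the burn beside another full-thickness wound. In the hippocampus 0 of 10 members passed in edgeR, where 0.209% of genes were called, 0.0664% as higher. At an unadjusted p under 0.05 there were 2 members, where 14.3% of genes were, and DESeq2, which called 1.55% of genes, called Maoa alone (0.19, adjusted p = 0.0276). The edgeR log2 fold changes were 0.21 (SE 0.06, adjusted p = 0.0854) for Maoa and 0.30 (SE 0.09, adjusted p = 0.142) for Htr7. For Htr7, 5 of 10 burn libraries lay above every excision library, and 4 of 10 did for Maoa. In batch 1 alone, where 1.05% of genes were called, Htr7 passed, at 0.56 (adjusted p = 0.0249). The other 8 members lay between -0.06 and 0.44.

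Excision against sham in the hippocampus gave 0 of 10 members and 0% of all genes, in edgeR and in DESeq2, and 0 members at an unadjusted p under 0.05, where 3.71% of genes were. Htr7 averaged 8.83 ± 1.14 CPM after excision and 8.20 ± 0.95 CPM in sham (log2 fold change 0.10, SE 0.10, adjusted p = 0.852). Maoa averaged 20.8 ± 2.83 CPM after excision and 20.3 ± 1.09 CPM in sham (0.04, SE 0.06, adjusted p = 0.887). The 3 comparisons share their groups.

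In the frontal cortex no member passed in edgeR for burn against sham, where 0.28% of 21077 genes were called. At an unadjusted p under 0.05 there were 2 members, where 13.0% of genes were, and DESeq2, which called 1.56% of genes, called 1 member. Htr5a, a receptor of cortical neurons, had the smallest p. It ran from 17.2 to 25.5 CPM in burn (median 21.9), from 15.6 to 20.9 CPM in excision (median 18.1) and from 15.1 to 21.1 CPM in sham libraries (median 18.3). Of 10 burn libraries 6 exceeded every sham library, 5 of them in batch 1, whose burn libraries did not overlap with its sham or excision libraries. The log2 fold change was 0.26 (SE 0.07, adjusted p = 0.106), and DESeq2 gave 0.27 with an adjusted p of 0.0294. It was 0.34 (adjusted p = 0.0385) in batch 1 alone, where 6.5% of genes were called, and 0.17 (adjusted p = 0.819) in batch 2 alone.

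Htr1a was the other frontal member with a small unadjusted p. It ran from 11.3 to 23.5 CPM in burn (median 16.04), from 10.5 to 17.9 CPM in excision (median 12.3) and from 9.62 to 18.2 CPM in sham libraries (median 11.7), with 4 of 10 burn libraries above every sham library. Its log2 fold change was 0.39 (SE 0.14, adjusted p = 0.2), at 0.38 in batch 1 and 0.47 in batch 2. The members that passed in the hippocampus stood at 0.03 (Htr7, SE 0.13, adjusted p = 0.947) and 0.07 (Maoa, SE 0.08, adjusted p = 0.775). Htr7 averaged 7.55 ± 1.50 CPM in burn and 7.33 ± 1.22 CPM in sham, and Maoa 25.6 ± 2.93 CPM in burn and 24.3 ± 2.11 CPM in sham. The remaining 6 lay between -0.38 (Htr4) and 0.18 (Htr2a). The direction of Htr2a turned between batches, at 0.56 (adjusted p = 0.0579) in batch 1 alone and -0.32 (adjusted p = 0.819) in batch 2 alone. So did those of Htr4 (-0.75 and 0.47), Htr7 (0.26 and -0.24) and Maoa (0.19 and -0.08). Batch 2 of the frontal cortex held 3 sham libraries. It also held burn replicates 7 and 8 and excision replicate 7, whose titles name another treatment. All 14 astrocyte genes stood lower in frontal burn than in sham, with 0 called, a median log2 fold change of -0.21 and sums of 4370 to 6940 CPM in burn and 4868 to 7948 CPM in sham libraries. All 12 striatal genes and all 12 microglia genes also stood lower, with 0 called in each list and medians of -0.43 and -0.21. The neocortex sum went the other way, at 1063 ± 211 CPM in burn and 938 ± 91.0 CPM in sham libraries (SD, n = 10 and 8). The part of these lists in the frontal values was not tested.

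Frontal burn against excision called 0 of 10 members in edgeR, where 0.209% of genes were called, 0.0807% as higher. At an unadjusted p under 0.05 there were 4 members, where 11.6% of genes were, and DESeq2, which called 0.83% of genes, called 1 member. Htr5a again had the smallest p, at 0.26 (SE 0.07, adjusted p = 0.126, and 0.0283 in DESeq2). Htr1a stood at 0.34 (SE 0.13), Htr3a at 0.23 (SE 0.10) and Maoa at 0.20 (SE 0.08), with adjusted p of 0.304 to 0.362. The other members were Htr4 at -0.64, Htr1b at -0.31, Htr2c at -0.17, Maob at 0.04, Htr7 at 0.14 and Htr2a at 0.21. In batch 1 alone, where 6.45% of genes were called, Htr5a and Htr1a passed, at 0.36 (adjusted p = 0.0317) and 0.52 (adjusted p = 0.0428). Excision against sham gave 0 members and 0% of genes in edgeR and in DESeq2, 0 members at an unadjusted p under 0.05, where 4.78% of genes were, and log2 fold changes of -0.13 (Maoa) to 0.26 (Htr4).

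**Figure D3:**
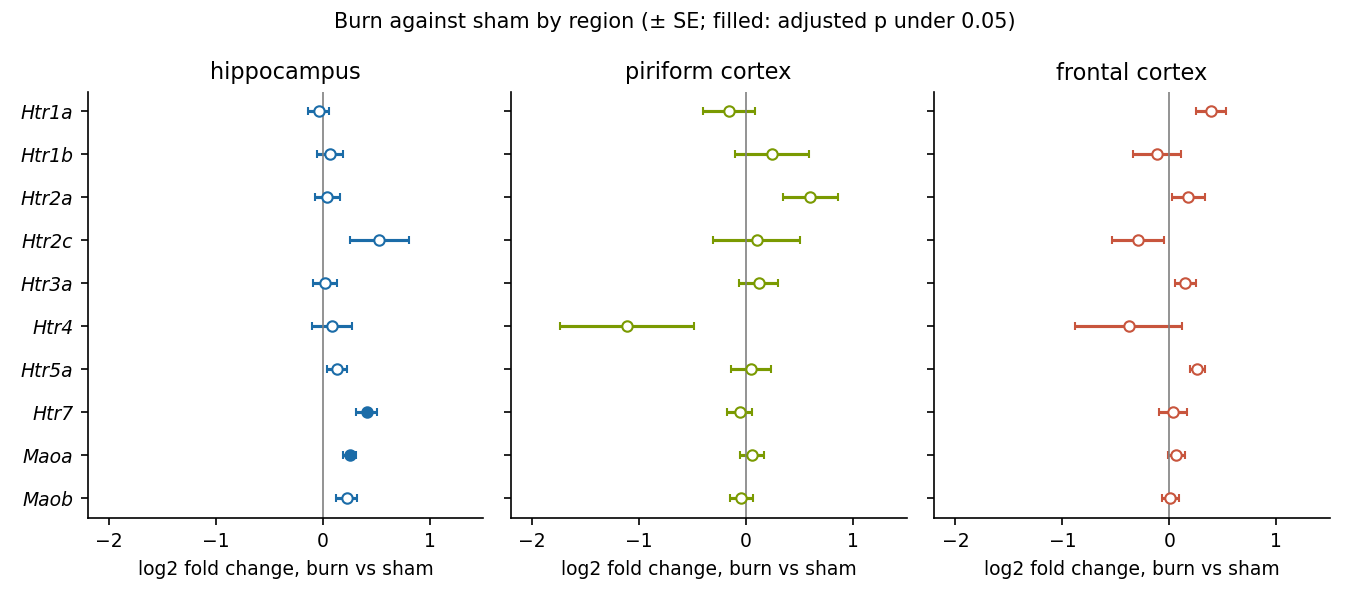
Log2 fold change of burn against sham (± SE of the fit) for the 10 genes in hippocampus, piriform cortex and frontal cortex, with filled points where the adjusted p is under 0.05. Htr7 (0.41) and Maoa (0.25) in the hippocampus are the filled points, and the widest errors belong to Htr4 in the piriform cortex (-1.11, SE 0.63).

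In the piriform cortex, with 4 or 5 libraries a group, edgeR called 0 members and 0% of 21004 genes in each of the 3 comparisons. At an unadjusted p under 0.05 there was 1 member in burn against sham, where 4.27% of genes were. There were 2 in burn against excision, where 7.89% were, and 2 in excision against sham, where 5.25% were. DESeq2 called 1 member in burn against excision, where it called 0.281% of genes, and 0 in the others. That member was Htr7, at 7.09, 8.43, 6.84, 6.78 and 7.83 CPM in burn, 10.96, 12.1, 8.32 and 10.9 CPM in excision and 6.72, 9.06, 8.34, 7.24 and 7.03 CPM in sham libraries. In 3 of 4 excision libraries Htr7 lay above all sham libraries and all burn libraries, and burn and sham overlapped. Its log2 fold changes were -0.51 for burn against excision (SE 0.13, adjusted p = 0.375, and 0.0435 in DESeq2), 0.45 for excision against sham (SE 0.13, adjusted p = 0.915) and -0.06 for burn against sham (SE 0.12, adjusted p = 0.942).

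Htr2a was at 20.96, 23.0, 36.5, 23.5 and 46.8 CPM in piriform burn, 13.3, 24.8, 21.3 and 19.0 CPM in excision and 10.6, 25.0, 18.3, 26.5 and 18.7 CPM in sham libraries. A pair of burn libraries lay above all sham libraries and the others overlapped, and the fitted log2 difference was 0.60 (SE 0.25, adjusted p = 0.884), or 0.45 without sham replicate 1. Htr4 stood at -1.11 (SE 0.63, adjusted p = 0.884) for burn against sham, and at -0.46 without sham replicate 1. Htr1b stood at 0.24 (SE 0.34), and at 0.78 (adjusted p = 0.86) without sham replicate 3, the library with the highest Drd2 of its region. That fit kept burn replicates 1 and 5, which also had high Drd2, at 101 and 51.9 CPM. Their Htr1b was at 14.8 and 12.8 CPM. The other members lay between -0.16 and 0.12 in burn against sham. In burn against excision Htr2a stood at 0.63 (SE 0.27, adjusted p = 0.628) and the members besides it and Htr7 between -0.56 (Htr2c) and 0.49 (Htr1b). In excision against sham Htr3a stood at 0.49 (SE 0.19, adjusted p = 0.915) and the members besides it and Htr7 between -0.83 (Htr4) and 0.66 (Htr2c). All 12 striatal genes stood higher in piriform burn than in sham, with 0 called and a median log2 fold change of 0.58, and 15 of 16 choroid plexus genes stood lower, with 0 called and a median of -1.21. Of 10 measured genes of the hippocampal formation 9 stood lower, with 0 called and a median of -0.81. Their part in these values was not tested.

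Whether the burn effect differed between regions or batches was tested as an interaction over all genes. Between hippocampus and frontal cortex 0 members passed, where 0.00425% of 23526 genes did, with 0 called by DESeq2. At an unadjusted p under 0.05 there were 3 members, where 7.92% of genes were: Htr7 at 0.38 (SE 0.16, adjusted p = 0.516), Htr1a at -0.43 (SE 0.20, adjusted p = 0.585) and Htr2c at 0.81 (SE 0.41, adjusted p = 0.63). The other members lay between -0.14 (Htr2a) and 0.48 (Htr4), with Maoa at 0.19 (SE 0.10, adjusted p = 0.67). Hippocampus against piriform cortex gave 0 members, where 0.0128% of genes passed, 0.0085% as higher. The 2 members at an unadjusted p under 0.05, where 6.32% of genes were, had opposite signs: Htr7 at 0.48 (SE 0.19, adjusted p = 0.78) and Htr2a at -0.55 (SE 0.26, adjusted p = 0.78). The other members lay between -0.16 (Htr1b) and 1.21 (Htr4), with Maoa at 0.21 (SE 0.12, adjusted p = 0.793). Piriform against frontal cortex gave 0 members and 0% of genes. There 1 member had an unadjusted p under 0.05, where 4.93% of genes did, and it was Htr1a at -0.55 (SE 0.23, adjusted p = 0.961), with the others between -0.73 (Htr4) and 0.41 (Htr2a). DESeq2 called 0 members in both. Among the genes of the marker lists, Ngp of neutrophils passed in hippocampus against frontal cortex (-9.01, adjusted p = 0.0336) and against piriform cortex (-9.48, adjusted p = 0.0331). Both comparisons hold hippocampus sham replicate 3, the library with neutrophil transcripts. The summed neutrophil list in hippocampus sham libraries had a median of 2.34 CPM and a maximum of 266 CPM. The part of that library in the Ngp values was not tested. Dsp (6.08, adjusted p = 0.00553) and C1ql2 (4.13, adjusted p = 0.00862) of the hippocampal formation passed in hippocampus against piriform cortex, a comparison that includes hippocampus sham replicate 3 and piriform sham replicates 1 and 3. The rises of Htr7 and Maoa in the hippocampus were thus not shown to be larger than their values in the cortices.

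Between batches 0 members passed in the hippocampus, where 0.0585% of 20521 genes did, with 5 members at an unadjusted p under 0.05, where 16.2% of genes were, and 0 called by DESeq2. The log2 fold change of burn against sham was lower in batch 2 than in batch 1 for all 10 members, at a median difference of -0.40, where that of all genes was 0.00. For 6 of them (Htr1a, Htr1b, Htr2a, Htr3a, Htr4 and Htr5a) it was positive in batch 1 and negative in batch 2, as for Htr2a at 0.40 and -0.28, Htr1b at 0.39 and -0.18 and Htr1a at 0.16 and -0.24. Htr2a had the largest difference, at -0.67 (SE 0.21, adjusted p = 0.126), followed by Htr1b at -0.58 (SE 0.22), Htr5a at -0.43 (SE 0.18), Htr2c at -0.42 (SE 0.54) and Htr1a at -0.41 (SE 0.19). In the frontal cortex 0 members and 0% of 22627 genes passed in edgeR, with 2 members at an unadjusted p under 0.05, where 18.4% of genes were, and 1 member called by DESeq2, which called 1.18% of genes. Htr2a again had the smallest p, at -0.90 (SE 0.25, adjusted p = 0.159), followed by Htr7 at -0.52 (SE 0.25, adjusted p = 0.27), and the others lay between -0.29 (Maoa) and 1.202 (Htr4).

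The other genes of the pathway were read from lists by role. In hippocampus burn against sham, edgeR called 0 of 3 further serotonin receptors that passed the count filter, 0 of 10 genes of serotonin synthesis, transport and release, 0 of 9 genes of monoamine breakdown and 0 of 19 genes of receptor signalling, with 0, 1, 1 and 5 at an unadjusted p under 0.05. The share of all genes at that threshold, 17.7%, stands beside them. The medians of these lists were -0.01, -0.02, 0.08 and 0.03 on the log2 scale. In the frontal cortex the counts were 0 of 4, 0 of 12, 0 of 10 and 0 of 19, with 2, 1, 1 and 5 at an unadjusted p under 0.05, where 13.0% of all genes were. In the piriform cortex they were 0 of 4, 0 of 12, 0 of 9 and 0 of 19, with 0, 2, 1 and 0, where 4.27% of all genes were. Burn against excision and excision against sham also called 0 genes of these lists in every region.

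Transcripts of serotonin neurons themselves were scarce. Slc6a4, the serotonin transporter, had 0 counts in 14 of 71 libraries and at most 93 counts, and Fev, the transcription factor of raphe neurons, had 0 counts in 15 libraries and at most 20. Tph2, the enzyme of neuronal serotonin synthesis, was at 1.13 ± 0.21 CPM in the hippocampus, 2.07 ± 2.01 CPM in the piriform cortex and 0.51 ± 0.15 CPM in the frontal cortex of sham mice. The genes of this paragraph and the next were picked after their values were seen.

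Between sham regions, the pathway showed contrasts of its own. Htr5b, a further receptor, was higher in the hippocampus (5.79 ± 0.89 CPM, n = 9) than in the frontal cortex (2.96 ± 0.56 CPM, n = 8), at 0.99 (SE 0.12, adjusted p = 1.94e-06). Slc29a4, a membrane transporter that takes up monoamines, was at 41.6 ± 7.55 CPM in the hippocampus and 12.1 ± 2.34 CPM in the frontal cortex, at 1.79 (SE 0.13, adjusted p = 1.3e-09). Htr1d, an autoreceptor gene, was at 0.15 ± 0.18 CPM in the hippocampus and 2.68 ± 0.66 CPM in the frontal cortex, at -4.13 (SE 0.44, adjusted p = 2.47e-07). Th, the first enzyme of dopamine synthesis, was at 1.27 ± 0.72 CPM in the hippocampus and 54.1 ± 33.7 CPM in the frontal cortex, at -5.46 (SE 0.47, adjusted p = 9.92e-09).

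Several members followed markers of a tissue that varied between libraries of a region. Htr2c, which choroid plexus epithelium also makes, correlated with the summed choroid plexus list over the 29 hippocampus libraries (log2 scale, Pearson's r = 0.82, Spearman's rho = 0.75, and r = 0.77 without the 2 farthest libraries). Over 28 frontal libraries, where that list ran from 11.3 to 62.4 CPM, r was 0.49, and over 14 piriform libraries 0.10. Htr1b, which striatal projection neurons make in quantity, correlated with the striatal list over the 14 piriform libraries (r = 0.96, rho = 0.95, r = 0.91 without the 2 farthest) and the 28 frontal libraries (r = 0.74, rho = 0.77, r = 0.68). In the hippocampus, where the striatal list spanned 269 to 404 CPM, the r of Htr1b was 0.35. These values describe libraries that share batches and dissection, and carry no test.

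**Figure D4:**
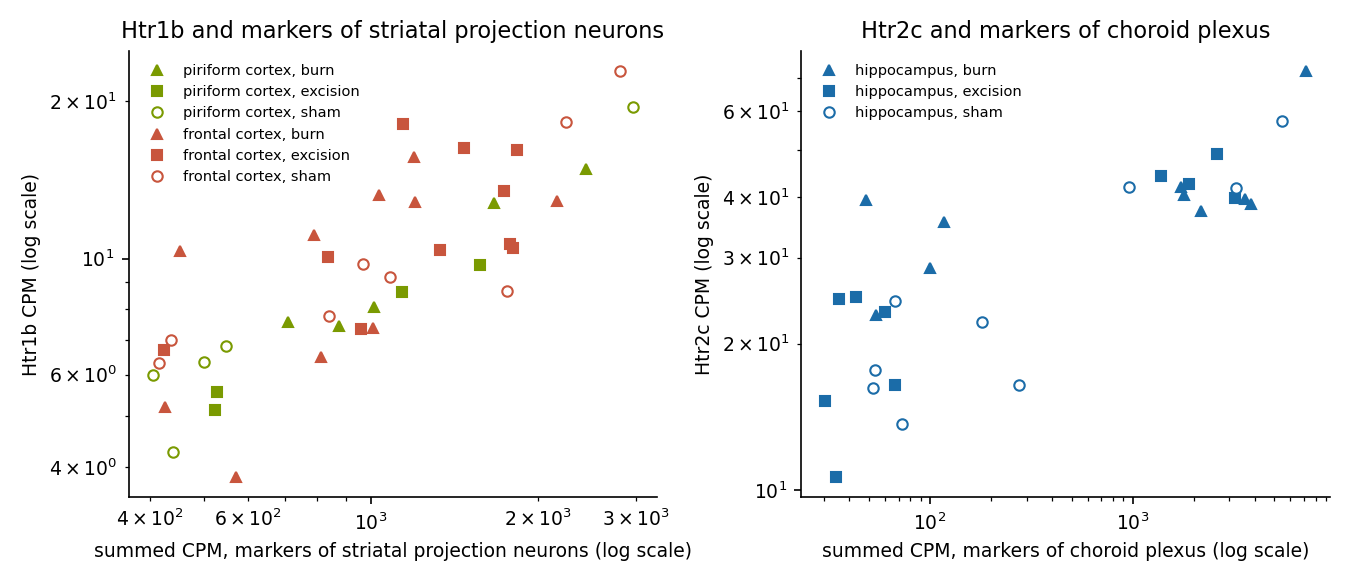
Left, Htr1b CPM against the summed CPM of striatal projection neuron markers in piriform (14) and frontal (28) libraries. Right, Htr2c CPM against the summed CPM of choroid plexus markers in 29 hippocampus libraries. All axes are log scales and shapes mark the treatment. Htr1b climbs with the striatal sum (r = 0.96 and 0.74) and Htr2c with the choroid plexus sum (r = 0.82).

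Htr4, also a striatal transcript, had an r of 0.84 with the striatal list in the frontal cortex (rho = 0.83, and 0.82 for r without the 2 farthest), 0.39 in the piriform cortex and -0.32 in the hippocampus. Htr7 had an r of 0.61 with the thalamus and septum list in the hippocampus (rho = 0.70, and 0.51 for r without the 2 farthest), 0.13 in the frontal cortex and -0.28 in the piriform cortex. Maob had an r of 0.57, 0.43 and 0.59 with the astrocyte list in hippocampus, piriform and frontal cortex, and Maoa of 0.46, 0.50 and 0.64. Htr1a had an r of 0.51, 0.55 and 0.63 with the hippocampal formation list. By rank its piriform value was weaker, with rho of 0.47, 0.18 and 0.70 in the same order of regions. Other pairs were read too, given here for hippocampus, piriform and frontal cortex. Maoa had an r of -0.12, -0.39 and 0.18 with an endothelium list, and Htr2a of 0.42, 0.19 and 0.27 with a claustrum list. Htr3a had 0.48, 0.07 and 0.54 with an interneuron list, and Htr7 0.48, 0.21 and 0.44 with the astrocyte list. Maob had 0.55, 0.45 and -0.40 with the choroid plexus list. The part of tissue composition in the treatment and region values of these genes was not tested apart from the choroid plexus covariate.

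Over all 71 libraries, after subtracting the mean of each region and batch, the genes most like Htr7 in log2 CPM among 14991 were Impact (Pearson's r = 0.77), Arxes2 (0.76) and Gm14494 (0.75). Those most like Maoa were Fam172a (0.74), Gabrg1 (0.73) and Glud1 (0.73). These values too are a description without a test.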

How the data were processed

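The authors deposited 1 table of raw read counts, with genes as rows and the 71 libraries as columns. Per the submitters' processing notes, FastQC 0.11.3, fastp and STAR were used, as was DESeq2 1.24.0, on the build GRCm38, and per the labels the reads were single-end runs of 100 bp. For the counting program, annotation release and strand setting nothing is stated, so reads of Htr1b and Htr3a cannot be told from those of their annotated antisense genes D430036J16Rik and Gm32335. Symbols and positions came from GENCODE M21, which matched 52135 identifiers, and 0 count columns were left without a sample.

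Groups follow the treatment field and the tissue field, since titles of piriform libraries name the frontal cortex. Each region was fitted over its 3 treatments with edgeR 4.0.16 in R 4.3.3 (TMM, filterByExpr, quasi-likelihood F test), with batch as a term in the hippocampus and frontal cortex. Sham regions and interactions had fits of their own. A gene was called at a Benjamini-Hochberg adjusted p under 0.05 over all genes. CPM and RPKM (exon union) were computed with TMM factors over all libraries, and errors are given as the SD of a group or the SE of a fitted coefficient. The pipeline was tested on simulated data.

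All 10 members are reported in every comparison, by name or within a stated range, and of the other lists the genes called in a treatment comparison, at most 5 a list by smallest p, and the 3 genes most like a member called in burn against sham, with genes outside this said to be so. Members and lists were chosen with earlier results of these data known. Alternatives tried were the Wald test of DESeq2 1.42.0, its size factors in edgeR, fits without a count filter, a replicate block, no batch term, each batch alone, disagreeing titles left out or followed, libraries under 10 M left out, 2 surrogate variables (sva 3.50.0), a choroid plexus covariate and each library left out.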

Additional observations from a re-analysis of the deposited data

Results flagged for a closer look

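Of 90 groups of 4 to 10 libraries tested for a library far from the rest, 7 held one, and chance flags about 1 in 20 groups. In each the library was the highest of its group. Htr1a was at 17.1 CPM in piriform sham replicate 1, against 10.5 CPM in the nearest library, and that library also had high Prox1. Htr1b was at 19.5 CPM in piriform sham replicate 3, against 6.82 CPM in the nearest, in the library with the highest Drd2 of its region. Htr1b was at 8.66 CPM in hippocampus excision replicate 3, the shallowest of all libraries at 6.65 M counts, against 6.77 CPM in the nearest. Htr2c was at 72.4 CPM in hippocampus burn replicate 2, against 41.8 CPM in the nearest, in the library with the highest choroid plexus sum of the region (7135 CPM), and at 62.6 CPM in frontal cortex sham replicate 5, against 38.8 CPM. Maob was at 36.6 CPM in hippocampus sham replicate 1, against 25.3 CPM in the nearest. That library is one of the shallow ones and has the highest choroid plexus sum of the sham group, 5419 CPM, and over the 29 hippocampus libraries Maob had an r of 0.55 with that sum (0.41 without the 2 farthest). Htr7 was at 9.65 CPM in frontal cortex excision replicate 10, against 7.38 CPM in the nearest.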

How the results depend on the processing

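In hippocampus burn against sham, the count of 2 called members became 1 in batch 1 alone, with libraries under 10 M left out, with no batch term and with the replicate block, and 0 in batch 2 alone, with no count filter, with 2 surrogate variables and with the choroid plexus covariate. DESeq2 size factors and the DESeq2 test, which called 3.21% of genes, kept Htr7 and Maoa called. Leaving out 1 library gave 0 to 3 calls (3 without sham replicate 1, where Maob passed). In hippocampus burn against excision the count of 0 became 1 with DESeq2 and in batch 1 alone, and ran from 0 to 2 with 1 library left out (2 without burn replicate 8, 1 without excision replicate 6). In the frontal cortex, burn against excision became 1 with DESeq2 and 2 in batch 1 alone, and ran from 0 to 1 (1 without burn replicate 6), and burn against sham became 1 with DESeq2 and in batch 1 alone. Piriform burn against excision became 1 with DESeq2. The batch differences became 1 in the frontal cortex with DESeq2 or treatment from titles, and 1 in the hippocampus without libraries under 10 M. The 3 calls of piriform against frontal cortex in sham ran from 1 (without frontal sham replicate 8 or piriform sham replicate 5) to 3.

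Whether title numbers pair the libraries was not settled. Same-numbered libraries of a batch, from different treatments, correlated above 0.1 in 11 of 28 hippocampus, 8 of 24 frontal and 4 of 11 piriform pairs. Libraries of unlike number were not compared, so these counts have no reference. With the replicate block Htr7 stood at 0.42 (adjusted p = 0.0468) and Maoa at 0.25 (adjusted p = 0.0691). The block could not be fitted for sham contrasts with the piriform cortex, and leaving out each library is not given for hippocampus against frontal cortex. No called member changed sign in the treatment comparisons, while 52 of 88 uncalled values had the other sign under at least 1 alternative. Depth was lowest in hippocampus batch 1, and its part in these counts was not tested beyond leaving out the 4 libraries under 10 M.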
